A study of Mus musculus with 12 samples.

Results

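Enteropeptidase and digestive enzymes of the pancreas, most of them zymogens downstream of it, were examined in mouse duodenum as a set of 10 listed genes. A gene counted as measured where an array feature carried its symbol alone, which held for 9 of the 10 among 19938 genes tested, each through 1 feature. The measured genes were Tmprss15, Prss2, Prss3, Ctrb1, Ctrl, Cela1, Cpa1, Cpb1 and Pnliprp1. Prss1 had no feature of its own. The list was made by function, with no value of these arrays in the rule, and it follows earlier results on the same arrays.

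Duodenal segments of strain 129 mice were collected at 15 and 30 days after birth, both from wild type animals and from animals in which the Onecut2 gene, encoding a transcription factor, had been ablated. The groups were wild type at day 15, knockout at day 15, wild type at day 30 and knockout at day 30, with 3 arrays each and 12 in all. For each array the RNA of 5 to 8 mice, of mixed sex, was combined, so the spread between arrays is that between pools and is narrower than the spread between single animals. The labels state no further allele and no agent. The comparisons ask how the genotypes differ at each age and how each genotype changes between the ages.

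Enteropeptidase is a membrane-bound serine protease of the duodenal brush border that cuts an activation peptide from trypsinogen. The trypsin so formed then activates further trypsinogen and the other pancreatic zymogens, among them chymotrypsinogens, proelastases and procarboxypeptidases. The zymogens are made by acinar cells of the pancreas, a gland attached to the duodenum, and most mouse trypsinogen genes lie in 1 cluster on chromosome 6.

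The 250 bases before the start of 4 genes are shown because the results turn on how these genes differ: the activator, 2 neighbouring trypsinogen genes that were higher in knockout, and Prss2, a trypsinogen gene of the same cluster whose genotype difference did not pass the test. They are RefSeq sequences of build GRCm38.p6 on the strand of the gene: chr16:79091098-79091347 (minus strand) for Tmprss15, chr6:41377614-41377863 (minus) for Prss3, chr6:41392106-41392355 (plus) for Gm5771 and chr6:41521526-41521775 (plus) for Prss2. Capitals mark ATTGAT or its reverse complement ATCAAT, a core of Onecut binding sequences, and TATAAA or TTTATA, the TATA box.
Tmprss15: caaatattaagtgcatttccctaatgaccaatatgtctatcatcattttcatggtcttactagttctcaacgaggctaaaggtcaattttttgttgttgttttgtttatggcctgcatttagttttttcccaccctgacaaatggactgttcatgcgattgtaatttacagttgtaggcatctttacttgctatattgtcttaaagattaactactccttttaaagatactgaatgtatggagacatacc
Prss3: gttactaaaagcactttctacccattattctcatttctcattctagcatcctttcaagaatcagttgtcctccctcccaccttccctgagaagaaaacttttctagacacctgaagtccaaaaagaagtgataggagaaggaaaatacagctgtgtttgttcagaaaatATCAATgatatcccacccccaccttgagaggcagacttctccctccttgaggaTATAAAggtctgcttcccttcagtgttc
Gm5771: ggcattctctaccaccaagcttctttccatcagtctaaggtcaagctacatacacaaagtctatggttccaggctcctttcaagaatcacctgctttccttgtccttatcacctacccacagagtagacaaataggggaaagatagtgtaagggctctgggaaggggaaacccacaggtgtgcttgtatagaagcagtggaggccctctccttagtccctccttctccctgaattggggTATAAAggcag
Prss2: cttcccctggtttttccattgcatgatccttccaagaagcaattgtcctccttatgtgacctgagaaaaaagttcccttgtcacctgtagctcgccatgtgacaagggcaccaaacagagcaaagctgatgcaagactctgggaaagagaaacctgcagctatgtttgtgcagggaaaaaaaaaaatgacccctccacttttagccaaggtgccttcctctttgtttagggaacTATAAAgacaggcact

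Prss3 held ATCAAT with its first base 81 before the start and TATAAA at 28, while Gm5771 and Prss2 held only TATAAA, at 11 and at 16. Neither motif was in the Tmprss15 window. Of 14 such windows examined, for the 10 listed genes and for Gm10334, Gm5771, Try4 and 2210010C04Rik, 3 held the Onecut core (Prss3, Gm10334 and Cpa1), beside 6.72% of 32851 windows of all genes. The palindromic core ATCGAT was in 0 of 14 and in 0.728% of all, and TATAAA in 8 of 14 and in 12.4% of all. The GATA motif AGATAA was in 4 of 14 and in 9.99% of all. The Cdx motif TTTATG was in 4 of 14 and in 10.8% of all. All motifs were searched on both strands, and none of the matches overlapped another. In a global alignment the Prss3 window was 84.6% identical to that of Gm10334, 54.9% to that of Prss2 and 53.9% to that of Gm5771, and the Gm5771 window was 83.7% identical to that of Prss1. These matches describe letters and show no binding.

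Levels are RMA expression values taken as log2, on which array medians lay between 7.20 and 7.25 and the highest values between 14.74 and 14.81. A difference of 1 is thus a factor of 2. Onecut2 itself averaged 9.64 ± 0.08 (SD, n = 3) in wild type and 8.14 ± 0.05 in knockout at day 15, and 9.58 ± 0.07 against 8.22 ± 0.03 at day 30, so the labels and the targeted gene run the same way. The sources used here do not say whether its probes lie in the deleted part. The mean of 12 enterocyte markers was 12.10 to 12.54 over the arrays, and that of 10 acinar markers outside the listed genes was 10.83 to 12.51. Wild type day 30 replicate 2 had the highest acinar mean and knockout day 15 replicate 2 the lowest. The 9 pancreatic islet markers averaged 7.21 to 7.72, near the array medians. In whole segments, fewer cells of a type and less RNA per cell cannot be told apart. Differences were tested with limma over all 19938 genes, and a gene passed where its p, adjusted by Benjamini-Hochberg over those genes, was under 0.05.

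Between genotypes, 2 of the 9 measured genes passed at day 15 and the same 2 at day 30: Tmprss15 was lower and Prss3 higher in knockout at both ages. Over all genes 3.83% passed at day 15 (1.81% higher and 2.03% lower) and 1.98% at day 30 (1.04% and 0.943%). The median difference over the 9 genes was -0.21 at day 15 and -0.44 at day 30, beside -0.010 and -0.004 over all genes. At day 15 the 3 knockout arrays did not overlap the 3 wild type arrays for 1 gene on the higher side and 5 on the lower side, where 9.09% and 12.2% of all genes were so separated (21.3% in either direction). At day 30 that held for 1 gene higher and 1 lower (7.95% and 7.49% of all genes, 15.4% in either direction).

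Tmprss15, the enteropeptidase gene on chromosome 16, stood at 10.31, 10.49 and 10.24 in the wild type pools of day 15. In the knockout pools of that age it stood at 6.94, 5.59 and 5.77. All knockout values lay far below all wild type values and below the array medians, and knockout replicate 1 was more than 1 log2 unit above the other knockout pools. The difference was -4.25 (SE 0.27, 95% interval -4.82 to -3.67, limma adjusted p = 1.5e-06), a level 19.0-fold lower in knockout.

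At day 30 Tmprss15 was at 11.72, 11.80 and 11.91 in wild type and at 7.49, 8.06 and 7.83 in knockout. The groups again lay apart, and every knockout array at day 30 was also below every wild type array at day 15. The knockout was lower by a factor of 16.2 (log2 difference -4.02, SE 0.27, limma adjusted p = 5.7e-06). No detection call was used, so the day 15 fold in particular, with knockout values under the array medians, depends on the background correction.

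Tmprss15 rose with age in both genotypes. The change from day 15 to day 30 was 1.46 in wild type (SE 0.27, limma adjusted p = 0.00097) and 1.69 in knockout (SE 0.27, limma adjusted p = 0.00032), with no overlap between ages in either. The order of its levels was thus knockout day 15, knockout day 30, wild type day 15 and wild type day 30, with no overlap between neighbours. The genotype difference at day 30 minus that at day 15 was 0.23 (SE 0.38, 95% interval -0.59 to 1.05, limma adjusted p = 0.94). Its protein-coding neighbours on chromosome 16, Chodl and Ncam2, differed between genotypes by -0.24 and -0.17 at day 15 (limma adjusted p = 0.28 and 0.27) and by -0.33 and 0.08 at day 30 (limma adjusted p = 0.17 and 0.78). All knockout arrays lay below all wild type arrays for Ncam2 at day 15 and for Chodl at day 30. Of all genes, 12.2% and 7.49% were so separated at these ages. The genotypes overlapped for Chodl at day 15 and for Ncam2 at day 30. Both neighbours fell with age, Chodl by 1.04 in wild type and 1.13 in knockout, and Ncam2 by 0.89 and 0.64 (limma adjusted p at most 1.6e-05).

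**Figure D1:**
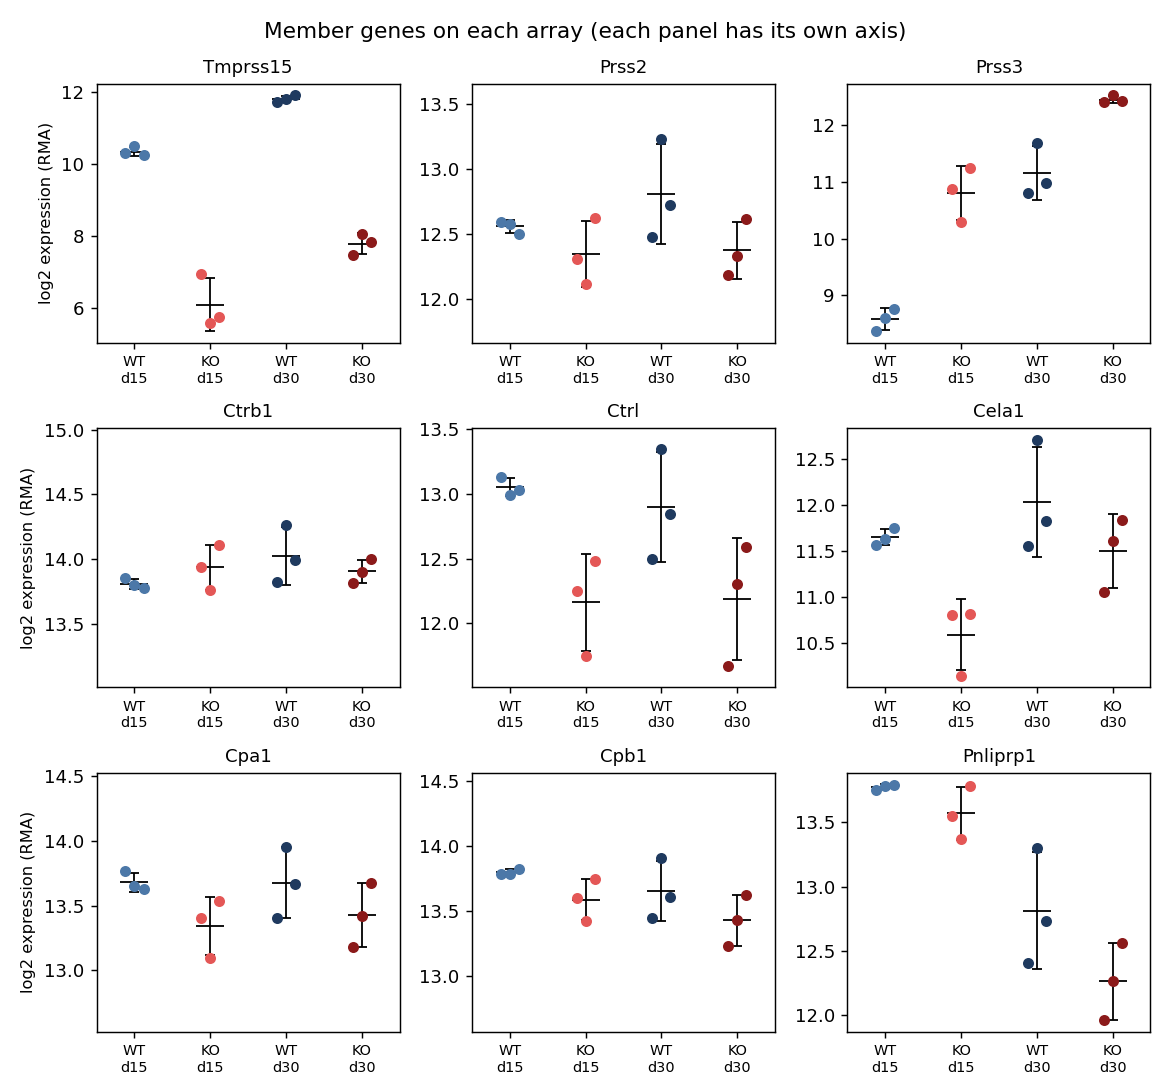
Log2 RMA expression of the 9 measured genes on each array, by group (WT, wild type; KO, knockout; d15 and d30, postnatal days 15 and 30); points are pools, bars the mean and SD (n = 3). The Tmprss15 knockout arrays lie below all wild type arrays at both ages, from 5.59 to 8.06, while Prss3 is lowest in wild type at day 15 and highest in knockout at day 30.

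Prss3, a trypsinogen gene, went the other way between genotypes. Its values at day 15 were 8.37, 8.60 and 8.77 in wild type and 10.88, 10.29 and 11.24 in knockout. Every knockout pool was above every wild type pool by more than 1 log2 unit, with a difference of 2.23 (SE 0.23, 95% interval 1.72 to 2.73, limma adjusted p = 0.00015), or 4.68-fold.

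At day 30 Prss3 stood at 10.81, 11.69 and 10.98 in wild type and at 12.41, 12.53 and 12.43 in knockout. The groups did not overlap, the knockout pools lay within a narrow range, and wild type replicate 2 was the pool nearest to them. The difference was 1.30 (SE 0.23, limma adjusted p = 0.011), or 2.45-fold. Without wild type day 30 replicate 3 it was 1.20 and no longer passed (limma adjusted p = 0.064), and without replicate 2 of that group it was 1.56 (limma adjusted p = 0.0022).

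Prss3 also rose with age, by 2.58 in wild type (SE 0.23, limma adjusted p = 3.3e-06) and by 1.65 in knockout (SE 0.23, limma adjusted p = 0.00014). Its lowest group was wild type day 15 and its highest knockout day 30. Between them, knockout day 15 (10.29 to 11.24) and wild type day 30 (10.81 to 11.69) overlapped. The genotype difference at day 30 minus that at day 15 was -0.93 (SE 0.33, 95% interval -1.65 to -0.22), which did not pass (limma adjusted p = 0.37, unadjusted p 0.015).

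Prss2, which encodes the anionic trypsinogen, was at 12.59, 12.58 and 12.50 in wild type and at 12.30, 12.11 and 12.62 in knockout at day 15. The groups overlapped through knockout replicate 3, and the difference of -0.21 did not pass (95% interval -0.59 to 0.16, limma adjusted p = 0.67). At day 30 its values were 12.48, 13.23 and 12.72 in wild type and 12.18, 12.33 and 12.61 in knockout, again with overlap (-0.44, 95% interval -0.81 to -0.06, limma adjusted p = 0.33). Its changes with age were 0.25 in wild type and 0.03 in knockout (limma adjusted p = 0.31 and 0.92).

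Prss1 could be seen only through 2 features that are each annotated to 4 genes, Gm10334, Gm5771, Prss1 and Prss3. Their values cannot be given to any of these genes and entered no test. The first was at 11.96, 12.08 and 12.10 in wild type and at 12.95, 12.53 and 13.21 in knockout at day 15, and at 12.51, 13.29 and 12.75 against 13.57, 13.86 and 13.57 at day 30. The second averaged 11.12 ± 0.20 (SD, n = 3) and 12.48 ± 0.41 at day 15, and 12.50 ± 0.48 and 13.59 ± 0.13 at day 30, wild type first. On both features every knockout array lay above every wild type array of its age.

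Of 15 listed trypsinogen and trypsin-like genes of the chromosome 6 cluster, 8 had a feature of their own: in chromosome order 2210010C04Rik, Try4, Try5, Try10, Prss3, Gm5771, Gm5409 and Prss2. Between genotypes 2 of the 8 passed at each age, Prss3 and its neighbour Gm5771, both higher in knockout, and none was lower. Over all genes 1.81% were higher at day 15 and 1.04% at day 30. The median difference over the 8 genes was 0.17 at day 15 and -0.03 at day 30. These genes are close copies of each other, so signal from one may reach another's probes, and values of single genes of the cluster are uncertain for that reason.

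Gm5771, a trypsinogen gene model, stood at 8.68, 8.51 and 8.36 in wild type and at 10.23, 9.88 and 10.77 in knockout at day 15. At day 30 it stood at 9.56, 10.55 and 9.71 in wild type and at 11.33, 11.64 and 11.53 in knockout. Neither age showed overlap, and the differences were 1.78 (SE 0.24, limma adjusted p = 0.0012) and 1.56 (SE 0.24, limma adjusted p = 0.0045). Its order over the groups differs from that of Prss3 in the middle only, where wild type day 30 averaged 9.94 ± 0.54 and knockout day 15 averaged 10.29 ± 0.45 (SD, n = 3), with overlap.

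Try5 at day 15 was at 13.03, 12.79 and 12.82 in wild type and at 13.35, 13.17 and 13.67 in knockout. The groups did not overlap, but the difference of 0.52 (SE 0.13) stood at the threshold without passing it (limma adjusted p = 0.05003), and it passed without wild type day 30 replicate 2 (limma adjusted p = 0.031), without wild type day 30 replicate 1 (limma adjusted p = 0.038) or without knockout day 15 replicate 2, where it was 0.63 (limma adjusted p = 0.040). At day 30 the Try5 difference was -0.05 (limma adjusted p = 0.95). The other 4 genes beside Prss2, which are 2210010C04Rik, Try4, Try10 and Gm5409, had differences between -0.18 and 0.24 at day 15 and between -0.16 and 0.13 at day 30, none of which passed.

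**Figure D2:**
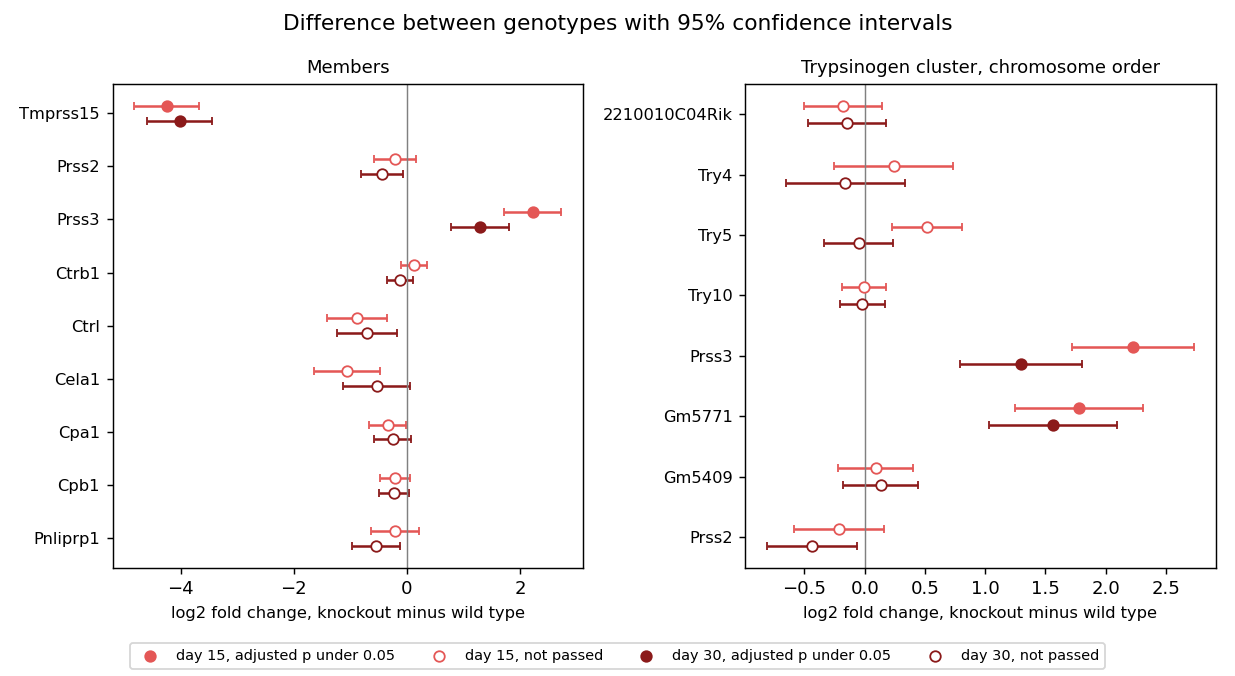
Log2 fold change, knockout minus wild type, at days 15 and 30 with 95% confidence intervals from limma, for the 9 measured genes (left) and the 8 measured trypsinogen cluster genes in chromosome order (right); filled points passed at an adjusted p under 0.05. Tmprss15 lies at -4.25 and -4.02, and among the cluster genes the filled points are those of the neighbours Prss3 and Gm5771.

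The other serine protease zymogens did not pass between genotypes at either age. Ctrb1 encodes chymotrypsinogen B and was among the bright features, at 13.85, 13.80 and 13.78 in wild type and 13.94, 13.76 and 14.11 in knockout at day 15. The groups overlapped (difference 0.13, 95% interval -0.10 to 0.36, limma adjusted p = 0.67), as they did at day 30 (-0.12, 95% interval -0.35 to 0.11, limma adjusted p = 0.79).

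Ctrl encodes a chymotrypsin-like protease. It was at 13.13, 12.99 and 13.03 in wild type and at 12.25, 11.75 and 12.48 in knockout at day 15. All knockout pools were lower, and the difference of -0.89 (SE 0.24) did not pass (limma adjusted p = 0.070). At day 30 the ranges overlapped, 12.50 to 13.34 against 11.67 to 12.59 (-0.71, SE 0.24, limma adjusted p = 0.23).

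Cela1, a pancreatic-type elastase gene, was at 11.57, 11.63 and 11.75 in wild type and at 10.81, 10.15 and 10.82 in knockout at day 15. These groups did not overlap either, and the difference of -1.06 (SE 0.27) lay close to the threshold without passing (limma adjusted p = 0.051). Both Ctrl and Cela1 passed at day 15 where the fit was made on the 6 arrays of that age alone (limma adjusted p = 0.027 and 0.014), and also without knockout day 30 replicate 1 (limma adjusted p = 0.041 and 0.047) or wild type day 30 replicate 2 (limma adjusted p = 0.049 and 0.014). Cela1 also passed without wild type day 30 replicate 1 (limma adjusted p = 0.039) or knockout day 30 replicate 3 (limma adjusted p = 0.04995). It passed with quantile normalization of the deposited values (limma adjusted p = 0.04958) and did not with the replicate number as a block. At day 30 Cela1 ranged from 11.56 to 12.70 in wild type and from 11.05 to 11.84 in knockout (-0.53, SE 0.27, limma adjusted p = 0.52).

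The carboxypeptidase genes showed small differences in the same direction. Cpa1, whose product removes aromatic and aliphatic residues from the carboxyl end of peptides, was at 13.76, 13.65 and 13.63 in wild type and 13.40, 13.10 and 13.53 in knockout at day 15, without overlap (-0.34, 95% interval -0.66 to -0.01, limma adjusted p = 0.30). Cpb1, whose product removes basic residues, was at 13.78, 13.79 and 13.83 against 13.60, 13.42 and 13.74, also without overlap (-0.21, 95% interval -0.47 to 0.05, limma adjusted p = 0.48). At day 30 both overlapped, with differences of -0.25 and -0.23 (limma adjusted p = 0.60 and 0.55).

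Pnliprp1 encodes a relative of pancreatic lipase and is the listed gene that is no protease. It was at 13.75, 13.78 and 13.79 in wild type and 13.55, 13.37 and 13.78 in knockout at day 15 (-0.21, limma adjusted p = 0.73). At day 30 its ranges, 12.40 to 13.30 and 11.96 to 12.56, overlapped as well (-0.55, 95% interval -0.97 to -0.12, limma adjusted p = 0.25).

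Beside these enzymes, the 10 acinar markers that are not among them had a median difference of -0.50 at day 15 and -0.39 at day 30. At either age 0 of the 10 passed, where 3.83% of all genes passed at day 15 and 1.98% at day 30. The mean of the 10 markers per array was 11.56 to 11.72 in wild type and 10.83 to 11.52 in knockout at day 15, and 11.48 to 12.51 and 11.27 to 11.84 at day 30. The mean of the 7 acinar enzymes of the list, which leaves out Tmprss15 and Prss3, was 13.17 to 13.21 and 12.52 to 13.01 at day 15, and 12.80 to 13.53 and 12.44 to 12.99 at day 30. These 2 means were thus lower on every knockout array than on any wild type array at day 15 and overlapped at day 30, although Ctrb1, Prss2 and Pnliprp1 each overlapped at day 15 and 0 of the 7 enzymes passed. The marker Gp2 went the other way at day 15, at 9.86, 9.97 and 9.79 in wild type and 10.58, 10.07 and 11.01 in knockout. Beside the shares over all genes, a count of 0 among 7 or 10 genes says little. How much pancreas each pool held was not tested. With the acinar marker mean as a covariate the Tmprss15 differences were -4.13 and -3.91, and those of Prss3 were 2.59 and 1.62 (limma adjusted p at most 0.00035 in all 4).

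Between the ages, 3 of the 9 genes passed in wild type and 4 in knockout, where 29.3% and 31% of all genes passed, so the counts themselves are close to the background. In wild type 2 were higher and 1 lower (12.3% and 17% of all genes), and in knockout 3 and 1 (13.8% and 17.2%). The same genes were those whose arrays did not overlap between the ages, where 20.7% of all genes were so separated on the higher and 23.1% on the lower side in wild type (43.8% in all), and 20.9% and 22% in knockout (42.8% in all). Tmprss15 and Prss3 rose in both genotypes, as given above, and Pnliprp1 fell in both. Pnliprp1 dropped by 0.96 in wild type (SE 0.20, limma adjusted p = 0.0021) and by 1.30 in knockout (SE 0.20, limma adjusted p = 0.00022), with no overlap between the ages. Cela1 rose by 0.91 in knockout (SE 0.27, limma adjusted p = 0.022), while in wild type its change was 0.38 (limma adjusted p = 0.33). The Cela1 call in knockout was lost without knockout day 15 replicate 2 (0.69, limma adjusted p = 0.10), day 30 replicate 2 (0.86, limma adjusted p = 0.061) or day 30 replicate 3 (0.74, limma adjusted p = 0.090).

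The remaining 5 genes had changes with age from -0.15 to 0.25 in wild type and from -0.16 to 0.08 in knockout, and none of these passed. Ctrb1 in wild type passed without wild type day 30 replicate 1 (0.32, limma adjusted p = 0.045). Over the 9 genes the median change was 0.22 in wild type and 0.03 in knockout, beside 0.02 and 0.03 over all genes. In the trypsinogen cluster 4 of 8 genes rose in wild type and 3 in knockout (12.3% and 13.8% of all genes). Gm5771 rose by 1.42 and 1.21 and Try4 by 1.18 and 0.78, in wild type and in knockout (limma adjusted p at most 0.020), while Try5 rose by 0.93 in wild type (limma adjusted p = 0.00015) and changed by 0.36 in knockout without passing (limma adjusted p = 0.056).

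**Figure D3:**
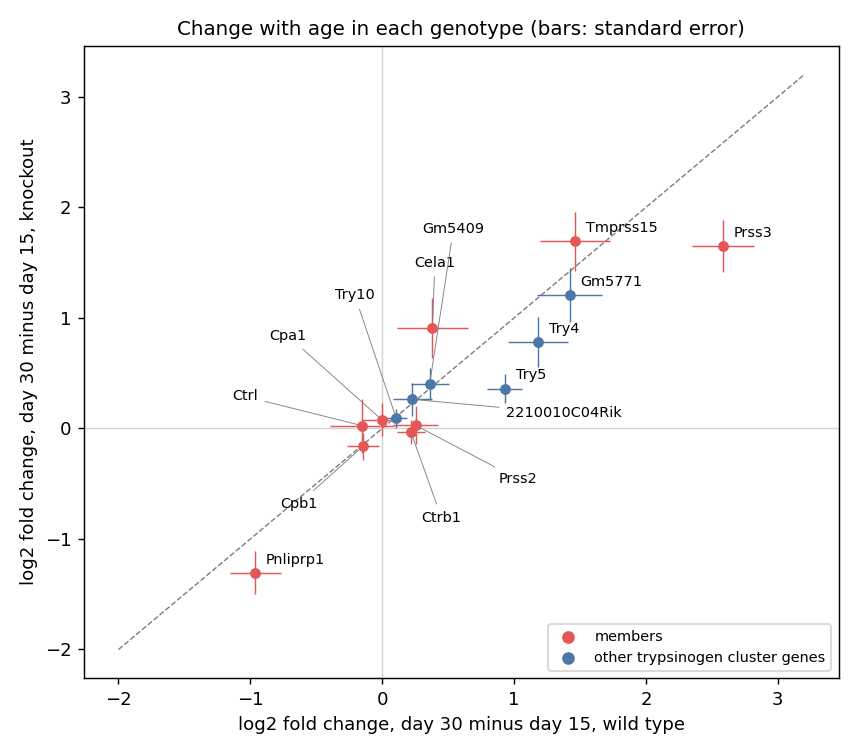
Log2 fold change from day 15 to day 30 in wild type (horizontal) and in knockout (vertical), with standard errors, for the 9 measured genes (red) and 6 further trypsinogen cluster genes (blue); the dashed line marks equal change. Tmprss15 lies at 1.46 and 1.69 and Prss3 at 2.58 and 1.65, while Pnliprp1 lies at -0.96 and -1.30.

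For none of the 9 genes did the genotype difference change between the ages by limma, where 0.456% of all genes passed (0.231% higher and 0.226% lower). At an unadjusted p under 0.05, 1 gene did, which was Prss3. Among the 8 cluster genes 0 passed as well, with Try5 at -0.57 (SE 0.19, limma adjusted p = 0.32, unadjusted p 0.010) beside Prss3. With the smooth muscle marker mean as a covariate, 96.9% of whose variance lay between groups, the Prss3 value was -1.82 and passed (limma adjusted p = 0.00054). It did not pass with the acinar mean (-0.97, limma adjusted p = 0.088) or the Paneth mean (-0.36, limma adjusted p = 0.99) as a covariate.

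Other acinar cell genes were followed beside these enzymes. Of 20 measured, a list that also holds Try4, Try5 and Try10, 8 were higher at day 30 in wild type, 6 in knockout, and 0 were lower in either. Over all genes 12.3% and 13.8% were higher, and 17% and 17.2% lower. Pla2g1b, the pancreatic phospholipase gene, rose by 2.14 and 2.79 (SE 0.19), and Ctrc, encoding chymotrypsin C, by 0.82 and 1.11 (SE 0.27). Gp2, a zymogen granule membrane gene, rose by 1.77 in wild type (SE 0.27, limma adjusted p = 0.00028) and changed by 0.70 in knockout (limma adjusted p = 0.071). Dmbt1, a secreted scavenger receptor gene, rose by 0.32 and 0.30 (SE 0.05). Its wild type day 30 pools lay between 13.93 and 13.98, near the highest values of the arrays (14.74 to 14.81), where RMA compresses differences. Which cells carry the Dmbt1 signal was not tested. Between genotypes the list median was -0.34 at day 15 and -0.23 at day 30, with 1 gene of the 20 higher at day 15, Spink1, none higher at day 30 and none lower at either age. Over all genes 1.81% were higher and 2.03% lower at day 15, and 1.04% and 0.943% at day 30.

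Markers of other cell types moved with several of these results. Of 7 Paneth cell markers measured, 6 were higher in knockout at day 15 and 4 at day 30, and with age 7 were higher in wild type and 6 in knockout. The shares over all genes were 1.81%, 1.04%, 12.3% and 13.8%, in that order. Their mean per array was 9.09 to 9.31 in wild type and 10.32 to 10.56 in knockout at day 15, and 10.42 to 10.52 and 10.98 to 11.10 at day 30. Prss3 followed the same order of groups, including the overlap of knockout day 15 with wild type day 30. Within each of these overlapping groups, the pools ran in the same order for Prss3 as for the acinar marker mean. In knockout day 15, replicate 2 was lowest for both (10.29 and 10.83). In wild type day 30, replicate 2 was highest for both (11.69 and 12.51). In wild type day 30 the Paneth mean ran in that same order, with replicate 2 again highest (10.52). In knockout day 15 its lowest pool was replicate 1 (10.32), with replicate 2 at 10.40. With 3 pools in a group, such orders do not set the 2 marker means apart. Within the other groups Prss3 and the acinar mean ran in different orders. The part of Paneth cells in the Prss3 result was not tested, since 98.7% of the variance of their marker mean lay between the groups. With that mean as a covariate 0 of the 9 genes passed in any comparison, as did 0 of all genes at day 15 and 4 at day 30. All 12 smooth muscle markers fell with age in both genotypes (17% and 17.2% of all genes), and 3 were lower in knockout at day 15 (2.03%).

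**Figure D4:**
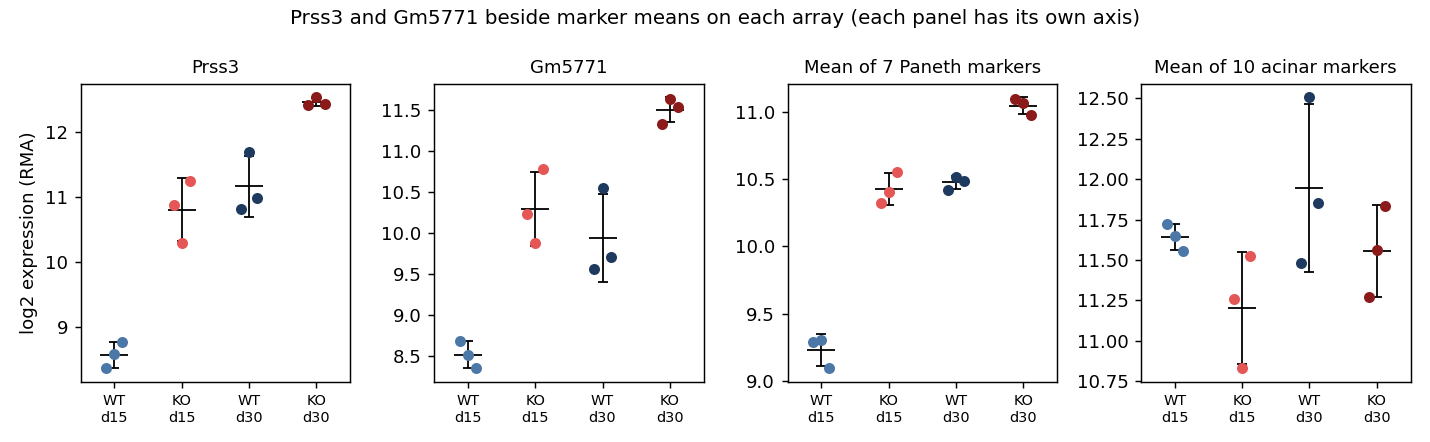
Log2 RMA expression of Prss3 and Gm5771 on each array beside the mean of 7 Paneth cell markers and of 10 acinar markers, by group as in the plot of single genes; points are pools, bars the mean and SD (n = 3). The Paneth marker mean is lowest in wild type at day 15 (9.09 to 9.31) and highest in knockout at day 30 (10.98 to 11.10), as is Prss3, while the acinar marker mean has its highest array in wild type at day 30, at 12.51. Within that group the same array is also the highest for Prss3 and for the Paneth marker mean.

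Genes whose 12 array values were most like those of each enzyme are given as a description, since arrays of 1 group share genotype and age. For Tmprss15 the highest Pearson correlations were those of 4931406C07Rik (0.985), St3gal6 (0.960), Nat8f2 (0.959), Tbc1d25 (0.952) and Wdr72 (0.946). Being chosen for this likeness they run with Tmprss15 between genotypes by construction, Wdr72 with differences of -1.36 and -0.74 at days 15 and 30 and St3gal6 with -0.59 and -0.56. For Prss3 they were Mmp7 (0.987), Slc35f2 (0.967), Pfkfb2 (0.967), Gm5771 (0.962) and Cdipt (0.959).

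Mmp7 encodes matrilysin, the protease that processes prodefensins in mouse Paneth cells. Its differences, which the choice by likeness to Prss3 did not leave free, were 1.37 at day 15 and 0.88 at day 30. For the mean of the 7 acinar enzymes they were the acinar genes Clps, encoding colipase (0.941), Cela3b (0.941) and Cela3a (0.924), with Pdia2 (0.929) and Cldn10 (0.923). The Pearson correlation of Tmprss15 with that mean was 0.62 and that of Prss3 was -0.38, both over the same 12 arrays.

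Some genes listed as trypsin inhibitors were higher in knockout. Of 10 measured, 3 were higher at day 15 (Spink1, Spink4 and Serpinb6a) and 1 at day 30 (Spink4), and none of these 10 was lower. The list need not hold every inhibitor gene. Ambp, counted with the liver markers and not here, averaged 8.433 in wild type and 7.286 in knockout at day 15. At day 30 Ambp averaged 7.564 and 6.735, and its genotypes did not overlap at either age. Over all genes 1.81% and 1.04% were higher. The list medians were 0.04 and 0.03, beside -0.010 and -0.004 over all genes. Whether each listed gene limits trypsin was not tested. Spink1 encodes the pancreatic secretory trypsin inhibitor. It was at 9.28, 9.65 and 9.58 in wild type and at 9.91, 10.13 and 10.26 in knockout at day 15, without overlap (0.60, SE 0.12, limma adjusted p = 0.016). At day 30 its difference was 0.41 and did not pass (limma adjusted p = 0.13). Spink4 was higher by 0.42 and 0.52 (SE 0.08, limma adjusted p = 0.0080 and 0.0027).

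Of 24 measured type II transmembrane and related serine proteases beside Tmprss15, 2 were higher and 1 lower at day 15, and 0 and 1 at day 30. Over all genes 1.81% were higher and 2.03% lower at day 15, and 1.04% and 0.943% at day 30. Prss30 was higher by 0.92 (SE 0.17, limma adjusted p = 0.0081) and Prss32 by 0.37 (limma adjusted p = 0.040), and Tmprss2 was lower by -0.28 and -0.34 at days 15 and 30 (SE 0.06, limma adjusted p = 0.022 and 0.010). The list median was 0.01 and -0.05, beside -0.010 and -0.004 over all genes.

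Further along protein digestion, 7 of 19 brush-border peptidase and amino acid uptake genes were higher in knockout at day 15 and 10 at day 30 (1.81% and 1.04% of all genes). None was lower, and the list medians were 0.35 and 0.33. Naaladl1, a peptidase gene, was higher by 3.25 and 2.87 (SE 0.11, limma adjusted p = 3.6e-09 and 1.9e-08). Xpnpep2, encoding a membrane aminopeptidase P, was higher by 0.92 and 1.07 (SE 0.08, limma adjusted p = 3.1e-05 and 1.1e-05), and Dpp4, encoding dipeptidyl peptidase 4, by 0.39 and 0.59 (SE 0.06, limma adjusted p = 0.0017 and 7.9e-05).

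Of 7 measured genes for hormones and receptors of pancreatic secretion, 3 were higher and 1 lower in knockout at each age. Over all genes 1.81% were higher and 2.03% lower at day 15, and 1.04% and 0.943% at day 30. Cck, encoding cholecystokinin, which drives enzyme secretion, was higher by 0.61 and 0.38 (SE 0.07, limma adjusted p = 0.00035 and 0.016). Sct, encoding secretin, which drives bicarbonate secretion, was lower by -0.31 and -0.32 (SE 0.07, limma adjusted p = 0.030 and 0.036). Nts and Gip, encoding neurotensin and the glucose-dependent insulinotropic peptide, were the other 2 that were higher.

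Of 7 transcription factor genes listed as acinar 0 passed between genotypes at either age by limma, where 3.83% of all genes passed at day 15 and 1.98% at day 30. With age 2 were higher and 1 lower in wild type (12.3% and 17% of all genes), and 3 and 1 in knockout (13.8% and 17.2%). Pdx1 rose by 0.47 and 0.44 and Gata6 fell by 0.32 and 0.38, in wild type and in knockout (limma adjusted p at most 0.00062). Which cells carry the Pdx1 and Gata6 changes was not tested. Among 9 islet markers only Gcg, the glucagon gene, which enteroendocrine cells also express, was higher in knockout, by 1.05 at day 15 and 1.57 at day 30 (limma adjusted p = 0.0021 and 0.00011, each with an SE of 0.16). Of 13 stomach and Brunner gland markers 4 were lower in knockout at day 15 (Cym, Gkn3, Tff2 and Muc6) and 2 at day 30, and of 10 liver markers 1 and 2 were lower. Over all genes 2.03% were lower at day 15 and 0.943% at day 30.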

How the data were processed

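Expression was measured in 12 duodenal RNA pools, 3 for each genotype and age. The deposited values are log2 expression per array feature, made by the authors with RMA in Affymetrix Expression Console 1.1, per the submitters' processing notes; the log base was inferred from the method and the range of values. RMA subtracts background, equalises the arrays' distributions and summarises probes, which compresses dim and bright features. Array number limits precision, and no detection calls were used.

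Of 35557 features, 21789 carried 1 gene symbol in the platform annotation, 1621 several and 12147 none; 21698 of the first matched RefSeq by gene ID and 0 symbols were updated. The feature with the highest mean stood for each of 999 genes with several. limma 3.58.1 in R 4.3.3 (lmFit, eBayes) was fitted to 4 group means, with 8 residual degrees of freedom and Benjamini-Hochberg adjustment over 19938 genes in each of 5 comparisons.

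The listed genes and gene lists were chosen with earlier results of these data known. Beside the listed genes, the text names Onecut2, the measured trypsinogen cluster, the neighbours of Tmprss15, the 5 genes most like each pattern, and genes of each list that were among its 4 with the smallest p in at least 1 comparison; not all of these are named. On simulated data for the day 15 genotype comparison with 19938 genes, 82% of 50 genes changed by 0.5 and 100% of those changed by 1, 2 or 4 (50 each) were recovered, with 11 false calls. The changed genes were drawn from all genes, each with its own spread. Recovery was not determined for genes as variable as Cela1 and Ctrl (SE 0.27 and 0.24, against 0.06 for Onecut2). Cela1 at -1.06 did not pass at day 15.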

Additional observations from a re-analysis of the deposited data

How the results depend on the processing

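Of 1116 values of single genes under the alternatives, 1070 stayed on their side of the threshold (57 of these changed sign without passing in either fit, and the others kept their direction), 18 lost and 24 gained the call, and 4 turned. The Tmprss15 genotype differences passed in every alternative except with the Paneth marker mean as a covariate, where they were -2.47 and -3.17 (limma adjusted p = 0.9998 and 0.78). With that covariate the changes of Tmprss15 with age were 3.31 in wild type and 2.61 in knockout, and with the smooth muscle mean 2.26 and 2.28, neither passing. Of the variance of the covariates, 98.7% (Paneth), 96.9% (smooth muscle) and 46.9% (acinar) lay between groups, so the first 2 are nearly confounded with the groups.

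The genes past the test at day 15 numbered 4 with an intensity trend, on only the 6 arrays compared, with array weights, on genes above the median mean and with the acinar covariate, 0 with the Paneth covariate, and 2 to 4 leaving out each array. The genes gained were Ctrl and Cela1, or Ctrb1 and Cela1 with the acinar covariate. With quantile normalization of the deposited values Cela1 alone was gained (limma adjusted p = 0.04958). At day 30 they numbered 0 with the Paneth covariate and 1 to 2 leaving out each array. With age they numbered 1 with the smooth muscle covariate and 0 with the Paneth covariate in each genotype, and with the acinar covariate 6 in wild type and 8 in knockout. For the difference between the genotype effects the number was 1 with the smooth muscle covariate.

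With the smooth muscle covariate the change of Pnliprp1 with age turned to 0.98 in wild type and 0.13 in knockout, neither passing (limma adjusted p = 0.62 and 0.93). With the acinar covariate the knockout changes of Prss2 and Ctrl with age turned to -0.23 and -0.33 and passed (limma adjusted p = 0.014 and 0.029). The cause was not tested.

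Over all genes the count past the test at day 15 was 764, and 1218 with array weights, 480 on 6 arrays, 323, 78 and 0 with the acinar, smooth muscle and Paneth covariates, and 340 to 886 otherwise, apart from 1079 with an intensity trend and 1089 above the median mean. At day 30 it was 395, and 596 with an intensity trend, 569 with array weights, 588 above the median mean and 444 with quantile normalization. It was 237 on 6 arrays, 228 and 4 with the acinar and Paneth covariates, and 218 to 420 leaving out each array. With age it fell from 5849 to 37 and 3 in wild type and from 6178 to 223 and 333 in knockout with the smooth muscle and Paneth covariates. For the difference between the genotype effects it was 91, and 177 with an intensity trend, 155 with array weights, 159 above the median mean, 30 and 2 with those covariates, and 47 to 123 leaving out each array.

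In the labels, same-numbered arrays of different groups have only the number in common, and no batch is named. Over 18 such pairs their deviations correlated from -0.25 to 0.36, and 7 pairs were over 0.1. Of the 12 arrays 5 were most like an array of their own number. These values do not decide whether same-numbered arrays shared a batch. With the replicate block no call of the 9 genes changed (Tmprss15 -4.25 at day 15, limma adjusted p = 1.6e-05), and 611 and 331 genes passed between genotypes at days 15 and 30.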
